A study of Danio rerio with 18 samples.

Results

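The Hox cluster genes of the zebrafish (Danio rerio) were followed along the brain of adult fish. A gene counted as a Hox member where its symbol, ignoring case, consisted of hox, a cluster letter from a to d and a number. This rule uses the symbol and no measured value, and it found 47 members among the 31624 genes of the count table, of which 26154 had a symbol. 32 of the 47 carried an upper case symbol of the human kind (HOXB3), which does not tell which zebrafish copy is meant, and 4 symbols (HOXA11, HOXB5, HOXC6 and HOXC12) were each carried by 2 members, told apart here by their Ensembl identifiers.

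Hox genes encode homeodomain transcription factors that give cells their position along the head-to-tail axis. They lie in clusters, and their order along a cluster runs with the order of their anterior expression limits in the embryo. Genes of the same position in different clusters form a paralogue group, and in the vertebrate nervous system the groups of low number begin in the hindbrain and the groups of high number further back in the spinal cord, while the forebrain and midbrain lack Hox transcripts. In this teleost the genome duplication left further copies (a and b) of several clusters.

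Messenger RNA was sequenced from the whole eye, the anterior and the posterior brain of wild-type (WT) fish and of a double knockout of the melanopsin genes opn4.1 and opn4xb (opn4 dko), all of the Tübingen strain and about 1.5 years old. Each of the 6 groups of tissue and genotype had 3 biological replicates, and each replicate held the same tissue of 3 fish, so that single fish cannot be told apart. All fish were kept under alternating light and darkness and dissected in the light phase. The mutant alleles are small frame-shifting deletions made with TALEN nucleases, and the posterior brain, according to the study's methods, held the midbrain, the hindbrain and the rear of the forebrain, and the anterior brain only a part of the forebrain with the pineal.

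Library totals ranged from 2186877 to 6946549 counts, and 3 counts corresponded to between 0.417 and 1.47 CPM, the depth-scaled read count on TMM library sizes. The parts of the brain were told apart by their markers. The 5 matched telencephalon markers summed to between 530 and 664 CPM in the 6 anterior libraries and between 5.61 and 17.9 CPM in the 6 posterior libraries, and dlx5a was listed at 0 throughout. Of 7 matched markers of the midbrain, cerebellum and hindbrain, 7 passed edgeR's test as higher in the posterior brain, against 20.2% of all genes. Their sum separated the parts less widely, with 391 to 456 CPM in the anterior and 635 to 790 CPM in the posterior libraries. Of the 7, pvalb7 and CBLN1 differed least, at means of 273 and 128 CPM in the anterior and 439 and 167 CPM in the posterior libraries. The marker TPH2 was at a mean of 0.0751 CPM in WT and 14.3 CPM in opn4 dko anterior brains. Over the posterior libraries TPH2 was at 4.22 CPM, so that it was higher in the posterior brain of WT only. The choline acetyltransferase and vesicular acetylcholine transporter genes, which mark cholinergic neurons such as motor neurons, were also higher in the posterior brain. The motor neuron marker ISL1 did not pass the test, at a mean of 22.1 CPM in the anterior and 23.1 CPM in the posterior libraries. Another, mnx1, was listed at 0 in all 18 libraries. Oligodendrocyte markers summed to between 7100 and 9930 CPM in the posterior and between 380 and 571 CPM in the anterior libraries. The markers listed for retina and lens summed to at least 2920 CPM in each WT and at least 2870 CPM in each opn4 dko eye library. The matched lens marker, crygm2d1, was at a mean of 0.121 CPM in the eye, so that this sum shows the retina and not the lens. In bulk tissue, fewer cells of a type and less RNA per cell cannot be told apart. The targeted gene opn4.1 had 1082, 1752 and 819 counts in the WT eyes and 1700, 1650 and 1844 in the opn4 dko eyes. In the anterior brain it had 0, 31 and 7 counts in WT and 19, 16 and 19 in opn4 dko. Its posterior counts separated the genotypes but were few, with 5, 10 and 5 in WT and 1, 0 and 0 in opn4 dko. The other targeted gene, opn4xb, had 66, 45 and 57 counts in the WT eyes and 47, 33 and 34 in the opn4 dko eyes. The counts of these genes thus did not check the genotype labels across the tissues.

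Hox reads were concentrated in the posterior brain. Over the 6 posterior libraries 1507 reads fell on 15 of the 47 members, over the 6 anterior libraries 12 reads fell on 3 members, and over the 6 eye libraries 58 reads fell on 7 members. A total of 29 members had no read in any of the 18 libraries. The summed level of all Hox members was 50.4, 41.7 and 88.4 CPM in the 3 WT posterior libraries and 34.7, 66.9 and 65.3 CPM in the 3 opn4 dko posterior libraries. In the anterior brain it did not exceed 0.916 CPM in any library. The posterior libraries were thus all above the anterior and eye libraries, and the genotypes overlapped within the posterior brain.

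**Figure D1:**
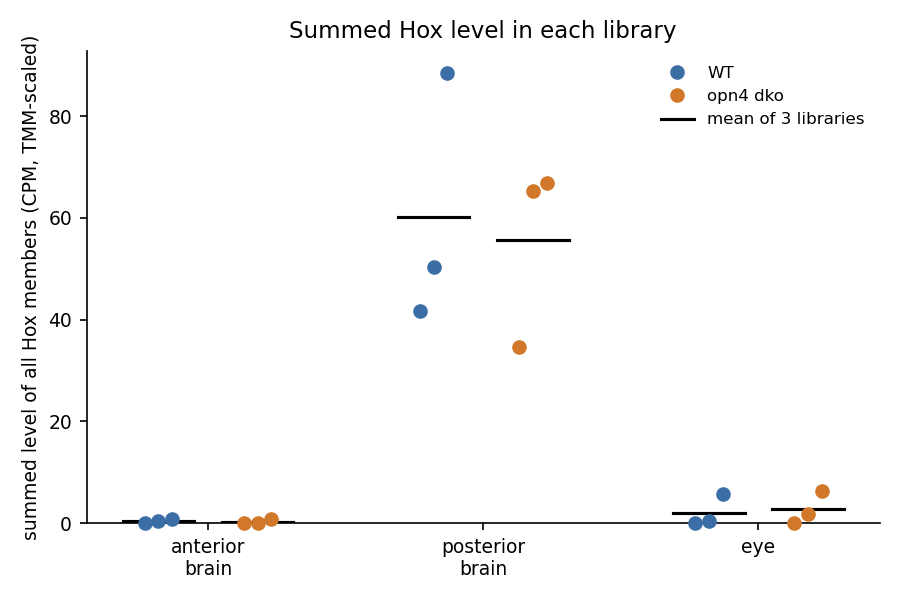
The summed level of the 47 Hox members (CPM on TMM library sizes, linear axis) is plotted for each library by tissue, with WT in blue, opn4 dko in orange and a bar at the mean of 3 libraries. The 6 posterior libraries lie between 34.7 and 88.4 CPM, and no eye library exceeds 6.41 CPM.

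The reads of the posterior brain were unequally spread over the paralogue groups. Groups 1 to 5 held 17 members, of which 10 had posterior reads, 1392 in all. Groups 6 to 8 held 8 members, of which 4 had posterior reads, 114 in all, and groups 9 to 13 held 22 members with a single posterior read among them, on HOXD11. Only members of groups 1 to 5 had a read in each of the 6 posterior libraries, and there were 7 of these. Group 3, with all of its 4 members detected, took 1049 posterior reads or 69.6% of the Hox reads there. Between clusters, the B genes took 57.0% of the posterior Hox reads, the A genes 21.4%, the C genes 12.5% and the D genes 9.16%. These shares are of reads that were not corrected for gene length, and they do not rank the transcripts.

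**Figure D2:**
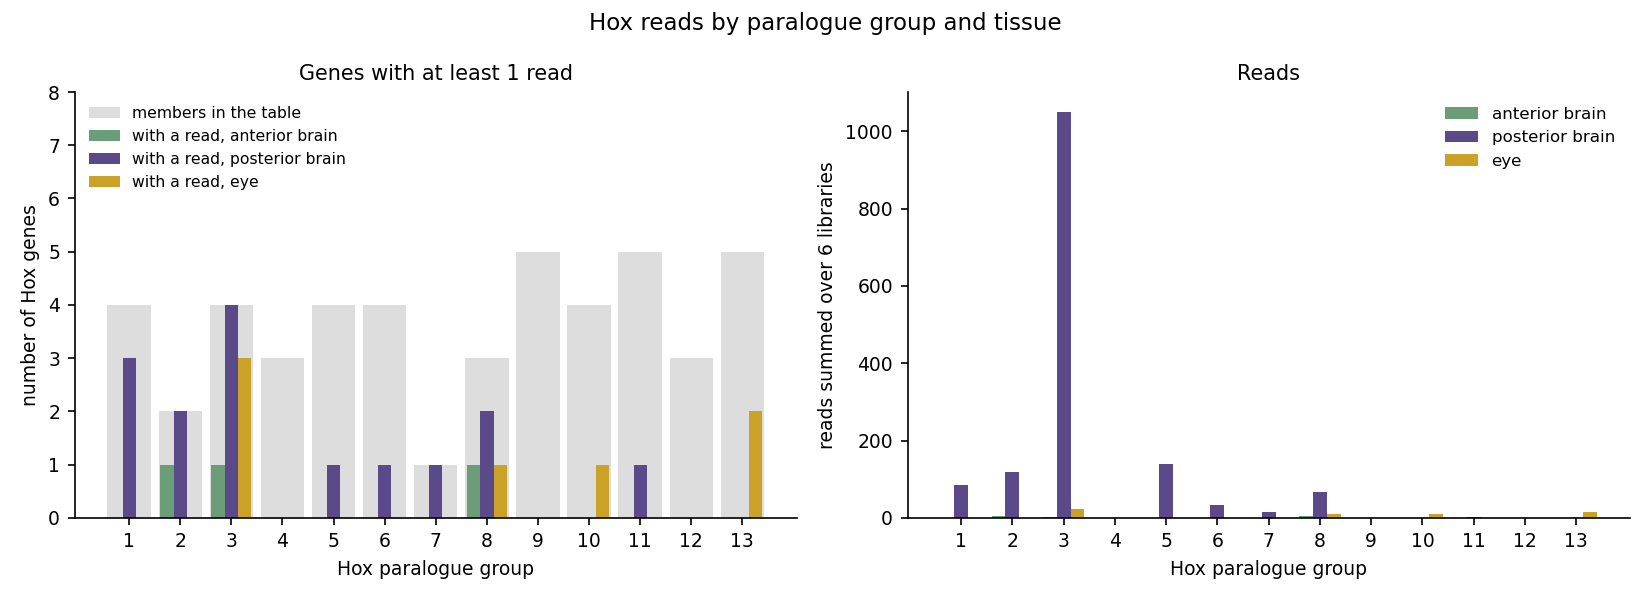
The left panel gives, for each Hox paralogue group, the number of members in the table (grey) and the number with at least 1 read in each tissue, and the right panel gives the reads summed over the 6 libraries of each tissue. Group 3 stands out with 1049 posterior reads, and groups 9, 12 and 4 are empty in each tissue.

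Members without any read were found in every group but 2, 3 and 7. In groups 1 to 5 they were hoxb1a, HOXB4, HOXC4, HOXD4, HOXA5, HOXC5 and the HOXB5 gene ENSDARG00000013057, so that none of the 3 members of group 4 was detected. In groups 6 to 8 they were HOXB6, both HOXC6 genes and HOXC8. In groups 9 and 10 they were hoxa9a, hoxa9b, HOXB9, HOXC9, HOXD9, hoxa10b, hoxb10a and HOXD10, and in groups 11 to 13 both HOXA11 genes, HOXC11, hoxc11b, both HOXC12 genes, HOXD12, hoxa13b, HOXC13 and hoxd13a. For a gene whose reads can be assigned, a count of 0 allows up to 3 counts, which is the limit of 0.417 to 1.47 CPM given above. A zero can also have other sources in this table, as the cone gene pde6c was listed at 0 in each eye library while GNAT2, another cone gene, was at 2830 CPM.

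Some of these zeros fell on genes whose reads may not be assignable. Reads were counted over whole gene spans, and by the counting program's default a read lying on more than 1 gene of its strand is given to none. In the RefSeq gene models of the GRCz12tu assembly, another build than the GRCz10 annotation counted, 11 members lie within the span of another Hox gene (hoxb3a, hoxc3a, hoxa3a, hoxd3a or hoxb1b). Of these 11 members, 9 had no read in any library, and the other two were hoxb6b and the HOXB5 gene ENSDARG00000054030. Among the 34 members outside such a span 18 had no read, and for the other two, the HOXC6 genes, the position was unclear. The 3 members of group 4 are among the 11. The part of shared spans in the zeros was not tested.

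Between the parts of the brain, 7 members had enough reads to be tested, and all 7 were higher in the posterior brain. These were 4 genes of group 3 (HOXA3, HOXB3, hoxc3a and HOXD3), HOXB2, the HOXB5 gene ENSDARG00000054030 and HOXB8. Of all 16848 genes tested, 20.2% were higher in the posterior brain at an adjusted p-value (false discovery rate, FDR) below 0.05 with edgeR's quasi-likelihood test. Since 6 of the 7 had no anterior read, they passed the filter on low counts only through the posterior libraries and had to differ. The FDRs given below for these 6 are therefore not read as support for a difference. The median log2 fold change of the 7 was 7.79, that of all genes tested 0.019, and with genes at 0 in the anterior brain set to 3 counts per library the median of the 7 became a lower bound of 3.27.

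HOXB3, a gene of the middle hindbrain and the spinal cord in vertebrate embryos, had 51, 119 and 119 counts in the WT posterior libraries and 54, 46 and 99 in those of opn4 dko. In the anterior brain it had 0, 1 and 2 counts in WT and none in opn4 dko. The lowest posterior library was therefore far above the highest anterior one. The posterior level was 18.3 ± 8.66 CPM (SD, n = 6) and the anterior level 0.0983 CPM. The pooled reads numbered 488 in the posterior and 3 in the anterior brain. Adjusted for the TMM library sizes their ratio was 190, with a 95% exact interval of 64.6 to 924 that covers counting error only, and the FDR of edgeR's test was 1.42e-10.

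HOXA3, its paralogue in the A cluster, had 34, 27 and 54 posterior counts in WT and 40, 45 and 71 in opn4 dko, and none in any anterior library. Its posterior level was 10.4 ± 4.26 CPM (SD, n = 6), at least 17.8-fold higher than in the anterior brain (edgeR FDR = 2.32e-08), where the bound sets each anterior library to 3 counts.

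The other two genes of group 3 had fewer reads but the same distribution. hoxc3a had 12, 30 and 32 posterior counts in WT and 23, 22 and 34 in opn4 dko. Its level of 5.73 ± 2.11 CPM (SD, n = 6) was at least 9.77-fold higher than in the anterior brain (edgeR FDR = 2.70e-06). HOXD3 had 20, 16 and 15 posterior counts in WT and 28, 36 and 22 in opn4 dko, and at 5.24 ± 2.34 CPM (SD, n = 6) was at least 8.92-fold higher (edgeR FDR = 5.14e-06). Neither gene had an anterior read, so that for both the libraries of the brain parts were fully separated.

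HOXB2, of a group that marks the anterior hindbrain, had 16, 2 and 16 posterior counts in WT and 13, 17 and 21 in opn4 dko. One WT library, at 2 counts, was thus within the 3 counts that a 0 allows. All 6 were above the anterior libraries, which had none, but this library by 2 counts only. The level of 3.37 ± 1.70 CPM (SD, n = 6) was at least 5.75-fold higher than in the anterior brain (edgeR FDR = 1.68e-04).

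The HOXB5 gene ENSDARG00000054030 had, relative to its mean, the widest spread of the tested members among the WT replicates, with 9, 6 and 39 counts against 15, 36 and 35 in opn4 dko. At 5.66 ± 4.20 CPM (SD, n = 6) it was at least 9.65-fold higher than in the anterior brain (edgeR FDR = 1.43e-05), which again had no read. HOXB8, of a group with a spinal cord limit in vertebrate embryos, was the only tested gene of a higher group. It had 14, 24 and 6 posterior counts in WT and 0, 5 and 11 in opn4 dko, so that 1 posterior library was at 0 like the anterior brain. Its level of 2.18 ± 1.52 CPM (SD, n = 6) was at least 3.71-fold higher (edgeR FDR = 1.56e-03).

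**Figure D3:**
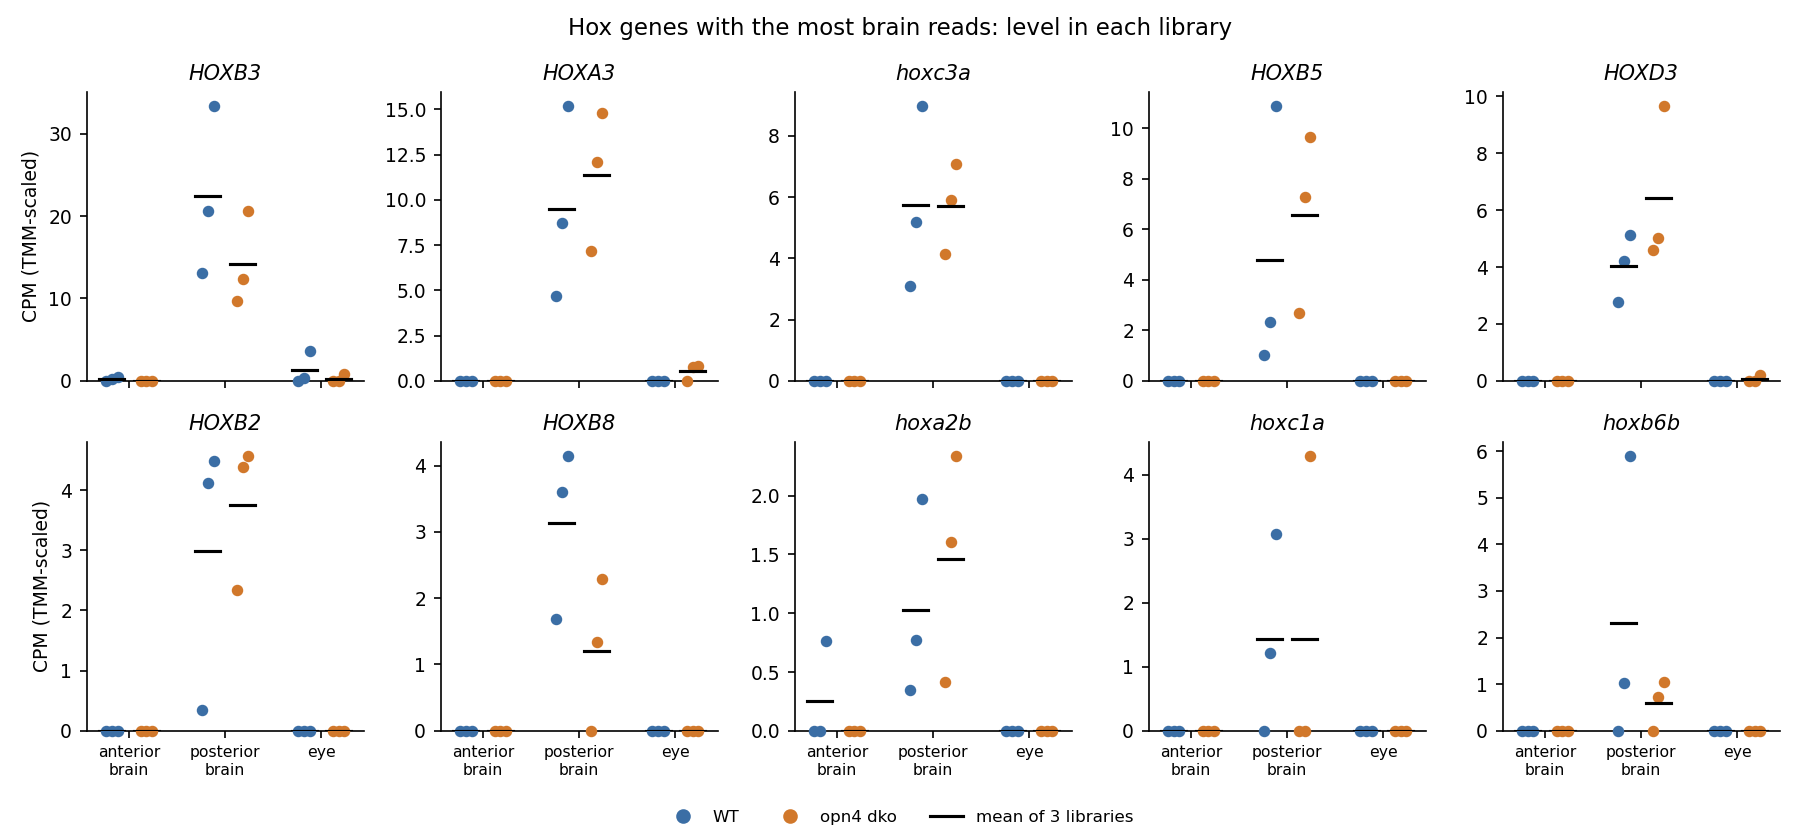
Each panel shows a Hox gene among the 10 with the most brain reads, with its level in each library (CPM on TMM library sizes, linear axes that differ between panels) by tissue, WT in blue, opn4 dko in orange and a bar at the mean of 3 libraries. HOXB3 reaches 18.3 CPM on average in the posterior brain and 0.0983 CPM in the anterior brain, and HOXB5 is the gene ENSDARG00000054030.

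Among the 15 members with a brain read, the libraries of the brain parts did not overlap for 6, the tested members other than HOXB8. For HOXB2 this rests on a posterior library with 2 counts, within the 3 that a 0 allows. Of all 16848 genes tested, 10.1% had each posterior library above each anterior one. That share covers only genes that passed the filter. The 6 members passed it through their posterior reads, so that nothing is read from their number. In none of the 15 was the mean level higher in the anterior brain. hoxa2b, which acts in the hindbrain and the second pharyngeal arch, was seen in each posterior library, with 3, 2 and 7 counts in WT and 13, 6 and 2 in opn4 dko. It also had 5 counts in 1 WT anterior library, so that its brain parts overlapped. hoxb6b had 4, 0 and 21 posterior counts in WT and 4, 0 and 5 in opn4 dko, and hoxc1a had 12, 7 and 0 in WT and 0, 16 and 0 in opn4 dko. Both were absent from the anterior brain, yet the zeros in the posterior libraries made the parts overlap.

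The remaining detected members had fewer posterior reads. hoxb1b, a gene of the early hindbrain, ranged from 0 to 20 counts over the 6 posterior libraries. HOXB7 ranged from 0 to 8 and hoxb8b from 0 to 5 counts, and HOXD11 from 0 to 1. Apart from hoxb8b, with 4 counts in 1 opn4 dko library, these had no anterior read, and none of them was tested.

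The brain parts were also compared within each genotype. In WT 7 of the 7 tested members were higher in the posterior brain, against 13.1% of all genes, and in opn4 dko 6 were, against 13.6%. These counts, too, follow from the filter, which the members passed through their posterior reads. The exception was HOXB8, with an FDR of 0.0153 in WT and 0.0502 in opn4 dko. For HOXB3 the log2 fold change was 6.69 in WT (FDR = 1.41e-07). In opn4 dko its anterior libraries were all at 0 and the FDR was 1.10e-07 in edgeR's test. The libraries had been run in several flow-cell lanes according to the deposited commands. Replicate 1 of both brain parts and genotypes shared lane 6, while the other anterior libraries were in lane 5 and the other posterior libraries in lane 4, so that there the part and the lane cannot be told apart. Within lane 6 the posterior libraries held 389 Hox reads and the anterior libraries 0. With 2 libraries on each side, both posterior libraries were above both anterior ones for 6 of the 7 tested members, again all but HOXB8. The share of all genes that separate in this way within lane 6 was not computed. The members passed the filter through posterior reads, those of lane 6 included, so that nothing is read from this number.

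Genes known to act with Hox genes or on them were compared between the brain parts as a list of cofactors, upstream factors, chromatin regulators and neighbours of the clusters. Of the 48 genes 37 were matched and 30 tested, of which 11 were higher in the posterior brain, 3 were lower there, against 20.2% and 20.1% of all genes, and 16 did not pass the test. In either direction 40.3% of all genes were called, so that the number of calls does not set the list apart. The list had a median log2 fold change of 0.324 against 0.019 for all genes. EVX2, the homeobox gene beside the D cluster, had between 7 and 32 counts in the posterior libraries and 2 counts in 1 anterior library (log2 fold change of 6.23 ± 1.09 SE, FDR = 5.48e-05). It was listed at 0 in each eye library. The Hox cofactor meis2b was higher by 6.01 ± 0.42 (SE) on the log2 scale (FDR = 9.27e-12), with 135 to 253 counts in the posterior libraries and 0 to 9 in the anterior ones. GSX1, of the ParaHox genes that are related to the Hox clusters, was higher by 5.99 ± 0.46 (FDR = 4.60e-11).

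The genes higher in the anterior brain were the cofactor PKNOX2, EZH2, whose histone methyltransferase keeps Hox genes silent, and kmt2a, whose histone methyltransferase keeps them active. Their log2 fold changes were -1.20, -1.23 and -0.59, with FDRs of 2.69e-08, 1.78e-04 and 1.78e-04. The chromatin regulator EED went the other way and was higher in the posterior brain (log2 fold change of 0.81, FDR = 5.41e-04). The listed chromatin regulators thus did not move one way. The retinoic acid pathway sets Hox limits in the embryonic hindbrain. Of the 10 tested upstream factors and genes of this pathway, 4 were higher in the posterior brain and 0 were lower. Of all genes, 20.2% were higher and 20.1% lower, and with 10 genes tested nothing is read from these numbers. CYP26B1, an enzyme that degrades retinoic acid, was higher in the posterior brain by 4.80 ± 0.25 (SE) on the log2 scale and ALDH1A2, an enzyme that makes it, by 2.22 ± 0.21, with FDRs of 2.46e-14 and 3.87e-09. The receptor gene raraa was also higher there, by 1.85 ± 0.21 (edgeR FDR = 8.61e-08). The enzyme genes ALDH1A3, CYP26A1 and CYP26C1 and the receptor gene rarab did not pass, with log2 fold changes of 0.44, -0.28, 0.13 and 0.17 and FDRs of 0.281, 0.690, 0.912 and 0.464. CYP26B1, ALDH1A2 and raraa were chosen after their values were seen.

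In the eye Hox reads were few and unevenly spread. The posterior brain was above the eye in 7 of 7 tested members, against 27.2% of all 18630 genes tested, and this comparison uses the same posterior libraries as that of the brain parts. As between the brain parts, these members passed the filter through their posterior reads, so that nothing is read from the count. All 6 eye libraries were in lane 7 and no brain library was, so that in each comparison with the eye the tissue and the lane cannot be told apart. HOXB3 had 11, 1 and 0 counts in the WT eyes and 4, 0 and 0 in the opn4 dko eyes, below each posterior library. Pooled over libraries (488 against 16 reads) and adjusted for the TMM library sizes, its posterior level was 23.1 times that of the eye, with a 95% exact interval of 14.1 to 40.7 for counting error. hoxc3a and the HOXB5 gene ENSDARG00000054030 had no eye read, and their posterior level was at least 6.09-fold and 6.01-fold that of the eye.

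The other eye reads came mainly from replicate 1 of each genotype. HOXA3 had no count in WT and 4, 3 and 0 in opn4 dko, and hoxb8b had 7, 0 and 0 in WT and 2, 0 and 0 in opn4 dko. HOXC10, hoxa13a and HOXB13, of groups that act at the tail end of the body and in the fins, were seen in the eye only. HOXC10 had 9, 2 and 0 counts in the opn4 dko eyes, hoxa13a 8, 2 and 0, and HOXB13 4, 0 and 0, and none of the 3 had a count in WT. The genotypes overlapped at 0 for each of them. The WT eye libraries were also less deep, with 2186877 to 3286423 counts in total against 3958571 to 5717878 in opn4 dko. The part of depth in the WT zeros was not tested. The opn4 dko replicate 1 had the highest summed level of skin and meninges markers of the eye libraries, 13100 CPM, the others lying between 6620 and 11600 CPM, and skeletal muscle markers there summed to 665 CPM in a range of 349 to 699. The part of either tissue in the Hox reads was not tested.

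Between the anterior brain and the eye 1 of 7 tested members passed the test, HOXB3, which was lower in the anterior brain (log2 fold change of -3.11, edgeR FDR = 0.0243), against 28.2% of all genes lower. This call rested on few reads. Without WT eye replicate 1 the log2 fold change was -1.80 (FDR = 0.192), without opn4 dko eye replicate 1 it was -1.34 (FDR = 1), and without opn4 dko anterior replicate 1 it was -3.08 (FDR = 0.0503).

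Between WT and opn4 dko, in which opn4.1 and opn4xb but not the other opn4 genes were mutated, no tested Hox member passed a test. In the posterior brain 6 members were tested between the genotypes. There were 0 calls by edgeR's exact test and by DESeq2, against 0.973% and 0.934% of all genes. By edgeR's quasi-likelihood test 0 passed, against 0.357% of all 15417 genes tested, and 0 had an unadjusted p below 0.05. With 6 members and shares this low, nothing is read from the number of calls. The smallest p was that of HOXB3, whose level was 22.4 ± 10.3 CPM (SD, n = 3) in WT and 14.2 ± 5.70 CPM (SD, n = 3) in opn4 dko. Its log2 fold change was -0.65 ± 0.378 (SE), with a 95% interval of -1.39 to 0.0927 (edgeR FDR = 0.615). HOXD3 was next, at 4.04 ± 1.19 CPM in WT and 6.43 ± 2.82 CPM in opn4 dko (SD, n = 3 each), a log2 fold change of 0.67 with an interval of -0.577 to 1.92 (edgeR FDR = 0.815). For HOXB2, the least precise, the interval reached from a fold of 0.389 to 4.23, so that changes of this size cannot be told from none.

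**Figure D4:**
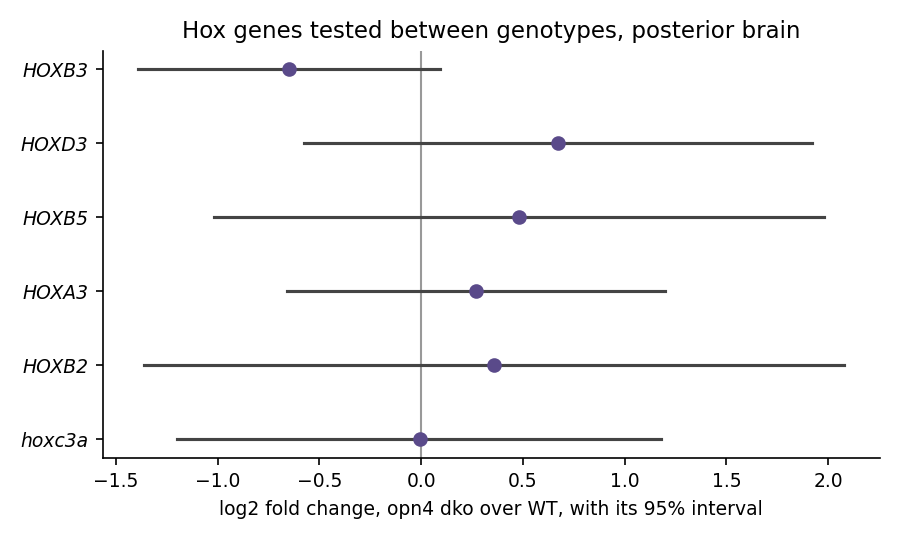
The log2 fold change of opn4 dko over WT in the posterior brain is plotted with its 95% interval for the 6 Hox members tested, ordered by p. Each interval includes 0, and that of HOXB3 reaches from -1.39 to 0.0927.

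The 6 tested members did not move one way between the genotypes, as 4 had the higher mean in opn4 dko, and their median log2 fold change was 0.314 against 0.00587 for all genes. For 0 of the 15 members with a brain read, the 6 tested ones included, did the posterior libraries of the genotypes separate. Of the 15417 genes tested, 15.6% separated in either direction. The other members with a brain read were too low to be tested, so that nothing is read from setting the 15 against that share. HOXB8, with 14, 24 and 6 counts in WT and 0, 5 and 11 in opn4 dko, and HOXB7, with 8, 0 and 6 counts in WT and none in opn4 dko, were too low to be tested. In both cases the genotypes overlapped.

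No member had enough reads for a genotype test in the anterior brain or the eye, where 1.05% and 0.0254% of all tested genes passed. Whether the genotype effect differed between the brain parts could not be estimated for 6 of the 7 members in that fit, HOXA3 among them, since their anterior counts were all 0. For HOXB3, the other, the test gave no call, against 0.00594% of all genes called, with an interaction of 2.45 ± 1.47 (SE) on the log2 scale (edgeR FDR = 1), which depends on the prior count since the anterior opn4 dko libraries were all at 0. Of the 37 matched partners and regulators 0 were called between the genotypes, with 29 tested in the posterior brain, 24 in the anterior brain and 26 in eyes. Of all genes, 0.357%, 1.05% and 0.0254% were called there, so that the 0 calls do not set the list apart.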

How the data were processed

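The table held raw read counts per gene, which the authors deposited for 31624 genes in 18 libraries without normalisation. Single reads of 100 bp were counted with featureCounts over gene spans of Ensembl release 86 (GRCz10), strand-specifically, keeping reads of mapping quality 20 or more. The sources name different mappers, and reads were not mapped again here. Libraries were matched to groups by labels, column names and the deposited commands.

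Counts were tested with edgeR 4.0.16 in R 4.3.3 (TMM, filterByExpr with a minimum count of 10 and total of 15, glmQLFit and glmQLFTest, prior count of 0.125), with p-values adjusted over all genes tested by Benjamini-Hochberg and a threshold of 0.05. Brain parts were compared in a fit of the 12 brain libraries, tissues against the eye in a fit of all 18, and genotypes in a fit per tissue. The standard error is the absolute log2 fold change divided by the square root of F, and 95% intervals are 1.96 of these to either side. A group with no read was set to 3 counts per library for lower bounds. Alternatives were other normalisations and filters, DESeq2 1.42.0, edgeR's exact test, a replicate block, each library left out and, chosen after the lanes were seen, lane 6 as a term. The fits were tested on simulated data.

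Symbols came from a gene name table, and a listed gene without a match of its own was taken by the single human-style symbol without copy letter. All tested members were to be named, with counts per library for the 10 members with the most brain reads, the 2 smallest p where no member passed between genotypes, eye members above 3 counts in a library, and the 3 largest changes each way among partners. Some items are not reported here. Members and lists were chosen with earlier results of these data known. The pools are biological replicates per the labels.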

Additional observations from a re-analysis of the deposited data

How the results depend on the processing

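The 7 members higher in the posterior than in the anterior brain numbered 7 at an FDR of 0.01, with DESeq2, RLE or upper quartile factors, with lane 6 as a term and with all 18 libraries in the fit, and 6 with a minimum count of 20, under which 6 were tested. Under these settings other than the FDR of 0.01, 28.6% to 44.8% of all genes were called in either direction. In opn4 dko HOXB8 was also called with DESeq2, RLE or upper quartile factors (7 members each, against 30.2%, 28.1% and 28.1% of all genes). Without the filter on low counts 12 of 15 tested members were called between the brain parts, against 30.5% of all genes in either direction. Between the posterior brain and the eye 11 of 18 were, against 43.6%. By edgeR's exact test 4 of 4 tested members were called in WT, against 29.2%, where fewer members passed the filter of the smaller fit. HOXB3 in the anterior brain against the eye was not called at an FDR of 0.01 or with the replicate block (0 members each). With each library left out in turn, 7 to 8 members were called between the brain parts, 6 to 7 in WT, 6 to 7 in opn4 dko, 7 to 8 between posterior brain and eye, and 0 to 1 between anterior brain and eye. In the genotype comparisons and the interaction 0 were called under every alternative that was run. No direction was reversed.

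The replicate numbers were not taken to pair the samples, since only 1 of 27 same-numbered pairs of samples had a correlation of deviations over 0.1. The 27 include pairs across genotypes, which are of different fish. As a hint of pairing, 10 of 12 samples of the brain parts correlated best with their own number. In opn4 dko all same-numbered pairs of brain parts (0.0522 to 0.0756) were above the other pairs (-0.0491 to -0.00837). The same held between eye and posterior brain in WT (at least 0.0312 against at most 0.00764) and opn4 dko (0.0251 against 0.00678). It also held between anterior brain and eye in opn4 dko (0.021 against 0.0199). In WT the pairs with the anterior brain overlapped the others. With the replicate block 7 members were called between the brain parts, 7 in WT, 6 in opn4 dko, 7 between posterior brain and eye and 0 between genotypes.

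Scaling to library totals, RLE size factors or actb1 reads left all posterior libraries above all others in the summed Hox level (at least 38.0 reads per 1000 actb1 reads). With few reads per gene, differences between genotypes below the given intervals could not be detected.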
